A study of Mus musculus with 12 samples.

Results

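The genes described here code for the proteins of the splicing machinery and for the RNA-binding proteins that steer it: the SR proteins, the proteins of the small nuclear ribonucleoprotein particles (snRNPs), and the heterogeneous nuclear ribonucleoproteins (hnRNPs). They were taken as all protein-coding genes of the deposited table whose symbol begins with Srsf, Snrp, Snrnp, Hnrnp, Sf3a or Sf3b, the SR and SF3 names followed by a digit. There were 59 of them among 32121 genes, 18077 of which are protein-coding. By role they fall into 11 SR proteins, 8 Sm core proteins, 3 proteins specific to the U1 snRNP, 11 of the U2 snRNP, 3 of the U5 snRNP and tri-snRNP, 3 of the minor U11/U12 particle and 20 hnRNPs.

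Introns are removed by the spliceosome, which assembles anew on each one. The U1 snRNP recognises the start of the intron and the U2 snRNP its branch site, and the tri-snRNP that carries U4, U5 and U6 then joins. A ring of Sm proteins forms the core of most of these particles, SR proteins bind exons and mostly favour their inclusion, and hnRNPs coat the transcript and often oppose it. In blood cells the genes of SF3B1 and SRSF2 are known for recurrent mutation in myelodysplastic syndromes.

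Each of 6 mice, all labelled C57BL/6, gave 2 spleen pieces, and each piece 1 RNA library. The SB group was 3 animals of the genotype VEC-Cre; SB Transposase; onc2, and the WT group was 3 animals labelled WT. VEC-Cre is a Cre recombinase under the vascular endothelial cadherin promoter, which is active in endothelium, the SB transposase is Sleeping Beauty, and onc2 is a mutagenic transposon that it moves. The pieces of each spleen were compared to learn how uniform a spleen was. The pieces are numbered 1 and 2 in the labels, and nothing says that piece 2 came from the same part of the organ in every animal. No age is stated in the labels.

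The libraries held 14320833 to 22031026 counts. Levels are in CPM, counts divided by library size, scaled between libraries with edgeR's TMM factors. With 3 animals a group, genotype p-values rest on the spread among 3 SB and 3 WT spleens. In edgeR this spread is drawn towards that of other genes. The p-values for pieces rest on the spread of the differences within spleens. The SB and WT spleens differed widely in their cells. Summed over its genes, the B cell marker list stood at 167 to 321 CPM in SB libraries against 10716 to 13578 CPM in WT libraries, and all 15 genes fell. The proliferation list stood at 5025 to 8885 CPM in SB against 1203 to 2427 CPM in WT. All 30 of its genes had higher values in SB, and 26 of them passed the adjusted threshold of the genotype test given below. In bulk tissue, fewer cells of a type and less RNA per cell cannot be told apart. Of 6 spleen markers, 1 passed the same test as higher and 2 as lower. Tlx1 was present in every animal at 9.85 to 18.5 CPM in SB and 19.9 to 25.5 CPM in WT, while Cr2, of B and follicular dendritic cells, was at 3.58 to 4.73 CPM in SB and 837 to 941 CPM in WT, and Stab2, of sinus endothelium, at 149.5 to 177 CPM in SB and 68.6 to 80.6 CPM in WT. Xist, the RNA of the inactive X chromosome, was at 2271 CPM in SB animal 1, 1002 CPM in SB animal 2 and 1.67 CPM in SB animal 3, against 1.49 to 2.44 CPM in WT spleens, and Y-linked genes were high in SB animal 3 and the WT animals, so sex was not balanced between the genotypes. H2-Ea-ps, an MHC class II gene used here as a check of strain, was at 0.10 to 0.24 CPM in SB and 86.8 to 97.5 CPM in WT. The labels give both groups the same strain, and the B cell list was also low in SB. Whether strain or B cell content underlies this difference was not tested. The part of cell makeup, sex and strain in the results that follow was not tested.

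Few of the splicing protein genes changed between SB and WT spleens: 3 rose, 2 fell and 54 did not pass the test. The sum of the 59 was 12808 to 17216 CPM in SB libraries and 12832 to 14259 CPM in WT libraries, so the ranges overlapped. All 59 genes passed the filter on low counts. With edgeR's quasi-likelihood test on counts summed per animal, and Benjamini-Hochberg adjustment over 17328 genes, Hnrnpll, Hnrnpab and Srsf4 rose in SB spleens. These 3 genes are 5.08% of the 59, against 8.59% of all genes tested. Srsf12 and Snrpn fell, which is 3.39% of the 59 against 9.75% of all genes tested. Both shares were below those over the whole table. At an unadjusted p under 0.05 there were 12 genes, or 20.3%, against 35.6% of all genes tested. DESeq2 called 10 higher and 3 lower, or 16.9% and 5.08%, against 16.8% and 15.7% of all genes. The median log2 change of the 59 was 0.24, compared with 0.11 over all genes tested, and 48 of the 59, or 81.4%, had a positive value, against 55.3% of all genes tested.

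**Figure D1:**
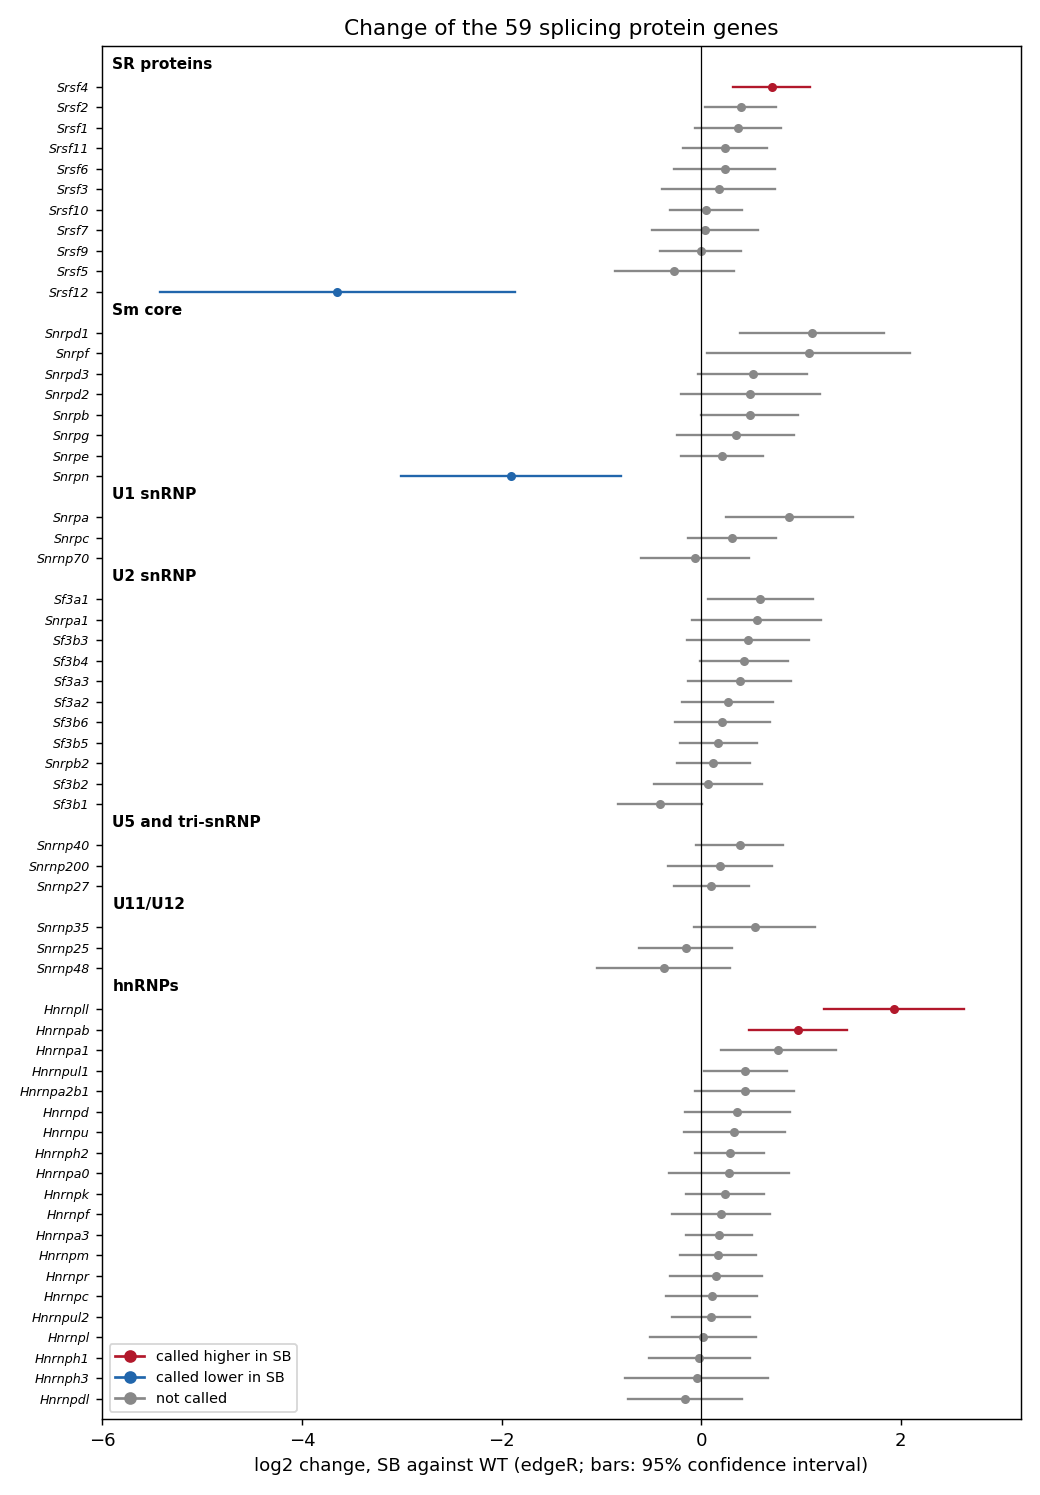
Log2 change of each of the 59 genes, SB against WT, with its 95% confidence interval from edgeR, grouped by role and ordered by size (red, called higher in SB; blue, called lower in SB; grey, not called). The points of 48 genes lie right of 0, and the 2 blue points, Srsf12 at -3.64 and Snrpn at -1.91, lie far to the left of the rest.

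Hnrnpll showed the largest rise. Its product directs the alternative splicing of the leukocyte antigen CD45 in lymphocytes. Summed over both pieces it stood at 79.2, 92.6 and 158 CPM in the SB spleens and at 29.3, 28.4 and 28.8 CPM in the WT spleens. The lowest SB library, at 62.9 CPM, lay above the highest WT library, at 34.6 CPM. The log2 change was 1.93 (SE 0.29, adjusted p = 0.0105, edgeR quasi-likelihood test). The T cell marker list, of cells known to use this gene, stood at 37.4 to 218 CPM in SB libraries and 1347 to 1753 CPM in WT libraries. All 15 of its genes had negative values, and 12 of the 15 were called lower. The part of T cells or other cells in the Hnrnpll values was not tested.

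Hnrnpab, an A/B-type hnRNP, stood at 506, 349 and 361 CPM in SB spleens and 223, 206 and 193 CPM in WT spleens. All SB libraries lay above all WT libraries, and SB animal 1 was the highest. The log2 change was 0.97 (SE 0.20, adjusted p = 0.0258, edgeR). The gene overlaps Phykpl on the other strand, and the libraries do not keep strand. Phykpl was counted 4629 times over the SB libraries and 2714 times over the WT libraries, beside 44218 and 20232 counts for Hnrnpab.

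Srsf4, a long SR protein, stood at 45.7, 41.7 and 47.2 CPM in SB spleens and 29.96, 27.3 and 25.2 CPM in WT spleens. It was the most even of the 3 that rose, with SB libraries between 38.04 and 47.4 CPM and WT libraries between 23.6 and 32.4 CPM. The log2 change was 0.71 (SE 0.16, adjusted p = 0.0315, edgeR).

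Srsf12 and Snrpn, which fell, were the least abundant of the 59 genes per kilobase of exon. Srsf12, known in human cells as a protein that counters other SR proteins, stood at 0.028, 0.273 and 0.049 CPM in SB spleens and 1.41, 1.46 and 1.49 CPM in WT spleens. That is 12 counts over the 6 SB libraries, with 0 to 5 in each, and 142 over the 6 WT libraries, with 19 to 31 in each. The groups did not overlap, and the log2 change was -3.64 (SE 0.73, adjusted p = 0.0233, edgeR). Snrpn codes for SmN, an imprinted stand-in for SmB best known from brain. It stood at 0.199, 0.576 and 0.340 CPM in SB spleens and 1.20, 1.53 and 1.46 CPM in WT spleens, or 40 counts in SB libraries and 136 in WT libraries. These groups did not overlap either, and the log2 change was -1.91 (SE 0.45, adjusted p = 0.0367, edgeR). Counts of both genes were few, and the 95% intervals ran from -5.42 to -1.87 for Srsf12 and from -3.01 to -0.80 for Snrpn. The overlapping gene Snurf, on the same strand as Snrpn, had no counts of its own among the genes matched. How reads from bases shared by the genes were counted is not known.

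**Figure D2:**
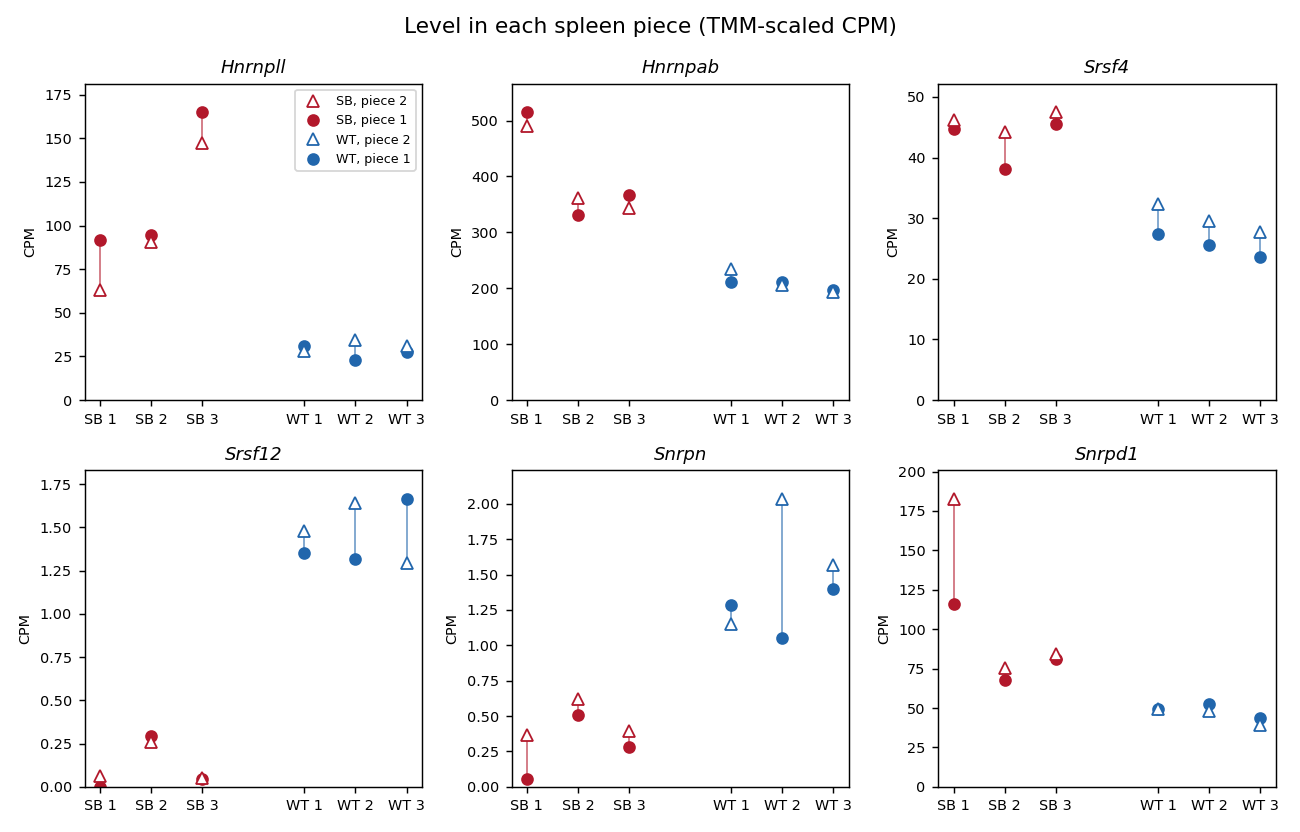
Level in each library, in TMM-scaled CPM on a linear axis from 0, for the 5 genes that changed and for Snrpd1 (red, SB; blue, WT; triangles, piece 2; circles, piece 1; lines join the pieces of 1 spleen). In each panel the 6 SB libraries do not overlap the 6 WT libraries, and for Hnrnpll the SB libraries run from 62.9 to 165 CPM against 22.7 to 34.6 CPM in WT.

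These 5 calls rested on all 3 WT animals. Leaving out any 1 of them left no call among the 59 genes, and left 241, 86 and 142 higher genes over the whole table without WT animals 1, 2 and 3, while the log2 change of Hnrnpll stayed at 1.91 to 1.93. Without SB animal 3, Srsf12 and Snrpn also lost their calls, with adjusted p of 0.051 and 0.075 (edgeR quasi-likelihood).

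Promoters of 3 of the changed genes and of Srsf5, which differed between pieces, are printed to show what lies before their start. Srsf12 is not printed, since its RefSeq window lies within the gene as GENCODE draws it. Sequences are from RefSeq on GRCm38.p6, each the last 150 bases before an annotated start. Where RefSeq gives several starts (4 for Snrpn, 3 for Srsf4) 1 is shown, read 5′ to 3′ on the gene's strand. Capitals mark the GC box GGGCGG, the CCAAT box and the Ets-type core CGGAAG, each searched on both strands, where neighbouring matches may touch or share bases.
Hnrnpab, chr11:51606882-51607031, minus strand: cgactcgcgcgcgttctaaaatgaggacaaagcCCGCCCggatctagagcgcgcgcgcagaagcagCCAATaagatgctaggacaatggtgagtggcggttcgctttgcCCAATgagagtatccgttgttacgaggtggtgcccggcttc
Srsf4, chr4:131873487-131873636, plus strand: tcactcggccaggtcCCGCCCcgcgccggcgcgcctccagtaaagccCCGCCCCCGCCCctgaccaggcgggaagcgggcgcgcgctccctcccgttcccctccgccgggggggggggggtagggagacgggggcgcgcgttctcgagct
Snrpn, chr7:60140226-60140375, minus strand: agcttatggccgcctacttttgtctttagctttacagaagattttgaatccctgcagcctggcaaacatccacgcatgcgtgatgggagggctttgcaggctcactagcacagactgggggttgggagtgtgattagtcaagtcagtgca
Srsf5, chr12:80945349-80945498, plus strand: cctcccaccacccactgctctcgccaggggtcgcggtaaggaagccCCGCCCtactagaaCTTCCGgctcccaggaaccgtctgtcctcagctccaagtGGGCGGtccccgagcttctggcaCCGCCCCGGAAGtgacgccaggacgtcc
Hnrnpab holds a GC box and 2 CCAAT boxes, Srsf4 holds 3 GC boxes, and Snrpn holds none of the 3 motifs in this stretch, although the window of another of its starts holds CCAAT. Srsf5 holds 3 GC boxes and 2 copies of CGGAAG. Over the full 250 bases the Snrpn window shown had 3 CpG, where those of Hnrnpab, Srsf4 and Srsf5 had 23, 37 and 17.

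Windows of 250 bases were to hand for 52 of the 59 genes, 69 windows in all, and not for Hnrnpll. Their median GC content was 59.6% and their median CpG count 19, against 55.6% and 10 over the 21263 windows of protein-coding genes. CGGAAG was found in 47.8% of the splicing gene windows and in 17.1% of those of protein-coding genes. GGGCGG was found in 68.1% and 42.6%, CCAAT in 40.6% and 35.4%, TTTNNCGC, an E2F-type motif, in 14.5% and 5.14%, and TATAAA in 10.1% and 11.6%. Both GC content and CpG count were thus higher in the windows of the splicing genes, and no allowance for base content was made in these shares. A match of letters is a description of the sequence and does not mark a bound site.

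Among the Sm proteins, which form the ring around the snRNA, 7 of 8 had positive values and Snrpn alone fell. The median log2 change was 0.49, the highest of the 7 role groups, but none of the 7 passed the threshold. Snrpd1, which codes for SmD1, stood at 147, 72.6 and 84.1 CPM in SB spleens and 49.3, 49.8 and 41.4 CPM in WT spleens, with no overlap between libraries. Its log2 change was 1.11 (SE 0.29), and its adjusted p of 0.05003 fell just past the threshold (edgeR quasi-likelihood test); DESeq2 gave 0.009. Snrpf, of SmF, stood at 13.3, 4.88 and 7.74 CPM in SB spleens and 4.06, 4.32 and 3.90 CPM in WT spleens. Its value in SB animal 1 was far above the other 2, and its log2 change of 1.08 had a 95% interval of 0.06 to 2.10 and an adjusted p of 0.125 (edgeR). Snrpb, the gene of SmB and SmB′, stood at 367, 234 and 304 CPM in SB spleens and 219, 217 and 210 CPM in WT spleens, a log2 difference of 0.49 with an adjusted p of 0.142 (edgeR). SmB and SmN are close in sequence, so reads of Snrpb and Snrpn may in part be shared, which was not tested.

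The U1-specific proteins had no call. Snrpa, whose product binds a stem-loop of U1 RNA, stood at 91.8, 46.6 and 68.1 CPM in SB spleens and 38.4, 36.8 and 36.6 CPM in WT spleens. Its libraries did not overlap between groups, and its log2 difference was 0.88 (95% interval 0.25 to 1.52, adjusted p = 0.0659, edgeR). Snrnp70, of the U1-70K protein, stood at 761, 488 and 682 CPM in SB spleens and 726, 660 and 632 CPM in WT spleens, a difference of -0.06 with an interval of -0.60 to 0.48.

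Among the 11 genes of the U2 snRNP, 10 had positive values, with a median of 0.27, and none passed the test. Sf3a1, of the SF3A complex that joins U2 to the pre-spliceosome, stood at 181, 128 and 217 CPM in SB spleens and 115, 115 and 119 CPM in WT spleens (log2 difference 0.59, SE 0.22, adjusted p = 0.107, edgeR). Sf3b1, whose product clasps the branch site, was the exception to the sign, at 777, 691 and 653 CPM in SB spleens and 966, 926 and 936 CPM in WT spleens. Every SB library was below every WT library, yet the log2 difference of -0.42 had an interval of -0.84 to 0.01 and an adjusted p of 0.144 (edgeR). Apart from the sparse Srsf12 and Snrpn, Sf3b1 was the one gene of the 59 whose SB libraries all lay below the WT libraries.

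The U5 and tri-snRNP genes Snrnp40, Snrnp200 and Snrnp27 had log2 differences of 0.39, 0.19 and 0.10, and the minor spliceosome genes Snrnp35, Snrnp25 and Snrnp48 had 0.54, -0.15 and -0.38. None of these 6 passed the test, and their 95% intervals all included 0. The largest lower bound was -0.05 and the smallest upper bound 0.29.

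Of the SR protein genes, 9 of 11 did not pass the test, and their log2 differences ran from -0.27 to 0.39. Srsf2, whose product binds exonic enhancers, stood at 382, 411 and 411 CPM in SB spleens and 325, 296 and 296 CPM in WT spleens. All SB libraries lay above all WT libraries, by a small margin of 366 against 356 CPM at the nearest, and the log2 difference was 0.39 (SE 0.15, adjusted p = 0.112, edgeR). Its reads may in part belong to the overlapping genes Mettl23 and Mfsd11. Of the hnRNP genes, 18 of 20 did not pass. Hnrnpa1, of a general splicing repressor, stood at 45.8, 27.4 and 42.2 CPM in SB spleens and 23.6, 21.5 and 22.4 CPM in WT spleens (log2 difference 0.78, interval 0.20 to 1.35, adjusted p = 0.0696, edgeR). Hnrnpa1 has many processed copies in the genome, and no source used here says how the authors counted shared reads, so its level is uncertain. Per kilobase of exon, Hnrnpa2b1 was the most abundant of the 59 genes, at 249.8 CPM per kb in SB and 184.6 CPM per kb in WT, and Srsf12 the least, at 0.037 and 0.462 CPM per kb.

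Counted without a test, all 6 SB libraries lay above all 6 WT libraries for 10 of the 59 genes, or 16.9%, where 13.1% of all genes tested did so. They lay below for 3 genes, or 5.08%, where 16.5% of all genes did so. The remaining 46 genes overlapped.

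The 3 SB spleens were not alike in these genes. On a log2(CPM + 1) scale, the median ratio of the 59 genes to the mean of the WT animals was 0.39 in SB animal 1, 0.05 in SB animal 2 and 0.26 in SB animal 3, where the median over all genes tested was between -0.02 and -0.01 in each. The level was above the WT mean for 53, 34 and 47 of the 59 genes in animals 1, 2 and 3. SB animal 2 was the lowest of the 3 for 40 genes, or 67.8%, compared with 34.6% of all genes tested, and SB animal 1 the highest for 35, or 59.3%, compared with 33.5%. The Sm core differed most between animals, with medians of 0.83, 0.10 and 0.40. The spread among SB animals exceeded that among WT animals for 57 of the 59 genes, or 96.6%, where it did so for 89.9% of all genes tested.

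**Figure D3:**
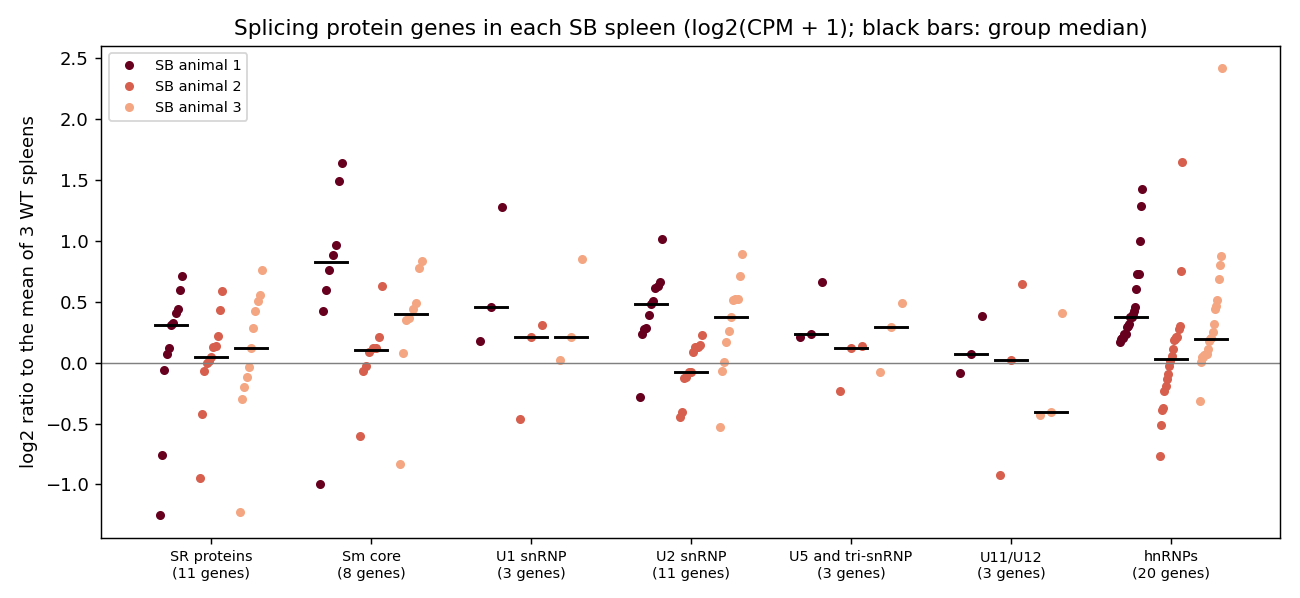
Log2 ratio of each SB spleen to the mean of the 3 WT spleens, on the log2(CPM + 1) scale, for every gene, by role (dark to light, SB animals 1 to 3; each point is 1 gene; black bars, group medians). In the Sm core the bars stand at 0.83, 0.10 and 0.40, and SB animal 2 lies close to 0 in most groups.

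SB animal 2 also stood apart in its cell markers. Its libraries held 15835 and 15887 CPM of the macrophage list and 14668 to 14711 CPM of the erythroid list, where the other SB libraries held 1079 to 1268 CPM and 2456 to 7023 CPM. WT libraries held 1123 to 2242 CPM of the macrophage list and 896 to 4574 CPM of the erythroid list. Its proliferation list was also the highest, at 8188 and 8885 CPM, where the other SB libraries held 5025 to 6002 CPM. Without SB animal 2, 17 of the 59 genes were called higher, or 28.8%, against 17.2% of all genes tested, and 2 lower, or 3.39%, against 18.5%. Those 17 were the 3 above, Snrpb, Snrpd1, Snrpd3 and Snrpf of the Sm core, Snrpa, Sf3a1, Sf3a2, Sf3a3, Sf3b3 and Sf3b4 of the U1 and U2 particles, and Srsf1, Hnrnpa1, Hnrnpa2b1 and Hnrnpu. The part of these cells in the lower values of SB animal 2 was not tested. Since SB animal 2 was the lowest of the SB animals for most of the 59 genes, its removal by itself raises their SB means. Without SB animal 1 the genes called higher were Hnrnpll, Hnrnpab, Srsf4 and Snrpd1, and without SB animal 3 Hnrnpll, Hnrnpab and Srsf4.

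Genes that work with these proteins were read against the same 8.59% higher and 9.75% lower over all genes. Among 61 other spliceosome genes, 4 rose, or 6.56%, and none fell by edgeR, with 11 at an unadjusted p under 0.05. Lsm2, of the ring on U6 RNA, averaged 63.6 ± 10.1 CPM in SB spleens and 31.4 ± 1.94 CPM in WT spleens (SD, n = 3 each), a log2 change of 1.02 with adjusted p = 0.0150 (edgeR). Usp39, of the tri-snRNP, and Phf5a, of the SF3B complex, rose by 0.86 and 0.69. U2af1, the subunit that reads the end of the intron, averaged 23.0 ± 6.58 CPM in SB and 15.6 ± 1.18 CPM in WT, and Zrsr2, its counterpart for minor introns, 44.2 ± 11.1 CPM and 47.2 ± 3.23 CPM. Neither was called, at adjusted p = 0.173 and 0.784 (edgeR). Of 16 snRNP assembly genes, Strap, a partner of the SMN complex, rose by 0.90 and Gemin7, of that complex, fell by 0.62, and 14 of the 16 had positive values with a median of 0.44. Of 10 SR-like proteins and their kinases, 1 was called: Clk4, a kinase of SR proteins, fell by 0.50. Of 27 other splicing regulators tested, 3 rose, or 11.1%: Raly, Pcbp1 and Pcbp2, RNA-binding proteins related to the hnRNPs, by 0.64, 0.65 and 0.54.

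Between the pieces of one spleen, few splicing protein genes differed, and the clearest was Snrnp70, higher in piece 2 of all 6 animals. This comparison kept the animal as a block, over 16787 genes. Taking all animals, 2 of the 59 genes were called, Snrnp70 and Hnrnph3, or 3.39%, against 2.82% of all genes tested. Snrnp70 stood at 889, 533 and 752 CPM in piece 2 of SB animals 1 to 3 and at 644, 420 and 598 CPM in piece 1. In WT animals 1 to 3 it stood at 827, 817 and 758 CPM in piece 2 and at 612, 519 and 543 CPM in piece 1. The log2 difference was 0.45 (SE 0.06, adjusted p = 0.0237, edgeR quasi-likelihood), and it was positive in 6 of 6 spleens. Hnrnph3, of a protein that binds runs of G, differed by 0.42 (SE 0.07, adjusted p = 0.0332, edgeR) and was also higher in piece 2 of all 6 animals. Neither call held when SB animal 3 or any 1 WT animal was left out, with adjusted p from 0.066 to 0.122, while the difference of Snrnp70 stayed between 0.41 and 0.48. Hnrnph3 overlaps Rufy2 on the other strand, and the libraries do not keep strand. Rufy2 was counted 2847 times over the SB libraries and 3631 times over the WT libraries, beside 9040 and 8222 counts for Hnrnph3.

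Within the WT animals, 6 of the 59 genes differed, or 10.2%, close to the 8.82% of all genes tested. Higher in piece 2 were Snrnp70 by 0.52 on the log2 scale (SE 0.07, adjusted p = 0.0056, edgeR), Srsf5 by 0.48 (SE 0.07, adjusted p = 0.0063), Hnrnph1 by 0.42, Hnrnph3 by 0.45 and Srsf2 by 0.26. Hnrnpf, a relative of Hnrnph1, was lower in piece 2 by 0.37 on the log2 scale, and each of the 6 genes moved the same way in 3 of 3 WT spleens. Without WT animal 2 or 3 none of the 59 genes was called. Without SB animal 1, which shares the estimate of spread, 18 of the 59 were, or 30.5%, against 18.8% of all genes tested. The pieces also differed in their cells: piece 2 of WT animals 1 to 3 held 1.25, 2.98 and 2.64 times the summed erythroid CPM of piece 1. In those spleens 14 of 15 erythroid, 9 of 10 macrophage and 12 of 30 proliferation genes were called higher in piece 2. Of 15 B cell genes, 3 were called lower. Over all 16787 genes tested, 977 were called higher and 504 lower. By sign alone, all 15 erythroid, all 10 macrophage and all 30 proliferation genes were higher in piece 2, and 2 of the 15 B cell genes were. The part of these cells in the 6 differences was not tested. Among related genes, Srrm2 and Tra2a were higher in piece 2 of WT spleens and Plrg1, Strap, Clns1a, Khdrbs1, Matr3 and Pcbp2 lower.

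Within the SB animals no splicing protein gene was called by edgeR, against 0.0119% of all genes tested. An unadjusted p under 0.05 was found for 14, or 23.7%, against 20.9% of all genes, and DESeq2 called 1, or 1.69%, against 1.77%. These shares are close to those over the whole table. Summed erythroid CPM in piece 2 of SB animals 1 to 3 was 0.798, 0.997 and 0.978 times that of piece 1. Macrophage ratios were 0.869, 1.003 and 0.868. Neutrophil ratios were 1.36, 1.167 and 1.104, and megakaryocyte ratios 1.17, 1.217 and 1.207, so not all lists went the same way. In WT animals 1 to 3 the neutrophil ratios were 1.362, 1.564 and 3.384. Whether such cells bear on Snrnp70 and Hnrnph3, also higher in piece 2 of all 6 spleens, was not tested.

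The difference between pieces was itself unlike in SB and WT spleens for Hnrnpa1 and Srsf5, which is 3.39% of the 59 genes against 1.23% of all genes tested. Hnrnpa1 stood at 35.5, 25.5 and 36.9 CPM in piece 2 of SB animals 1 to 3 and at 54.0, 30.01 and 46.0 CPM in piece 1. In WT animals 1 to 3 it stood at 26.0, 23.5 and 24.98 CPM in piece 2 and at 20.8, 19.9 and 20.8 CPM in piece 1. It was thus lower in piece 2 of every SB spleen and higher in piece 2 of every WT spleen. The difference between the genotypes was -0.67 on the log2 scale (SE 0.14, adjusted p = 0.0473, edgeR interaction test). Srsf5, of an SR protein, stood at 400, 728 and 597 CPM in piece 2 of SB animals 1 to 3 and at 429, 735 and 621 CPM in piece 1. In WT animals 1 to 3 it stood at 856, 829 and 822 CPM in piece 2 and at 651, 530 and 616 CPM in piece 1. Its pieces were almost level in SB spleens, and the difference between the genotypes was -0.54 (SE 0.10, adjusted p = 0.0417, edgeR interaction test). Neither call held without SB animal 3 or WT animal 2 or 3 (adjusted p 0.180 to 0.213), and Hnrnpa1 was not called without WT animal 1 either, at 0.064.

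**Figure D4:**
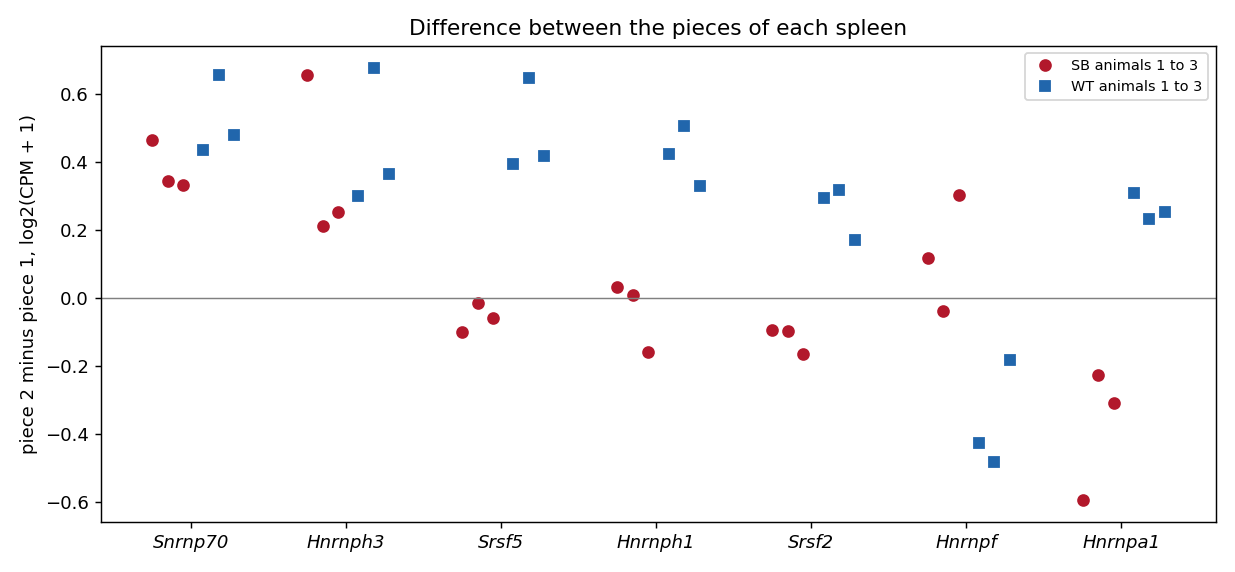
Difference between piece 2 and piece 1 of each spleen, on the log2(CPM + 1) scale, for 7 genes. These were called in a test between pieces or in the interaction test, which compares the piece difference between genotypes. Red circles are SB animals 1 to 3 from left to right, and blue squares WT animals 1 to 3. Snrnp70 and Hnrnph3 lie above 0 in all 6 spleens, and Hnrnpa1 lies below 0 in the 3 SB spleens and above 0 in the 3 WT spleens.

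The Sm core genes had the opposite lean, as did several other lists. In the SB fit 7 of the 8 had positive piece 2 minus piece 1 values, with a median log2 difference of 0.29, in the WT fit 7 of the 8 had negative values, with a median of -0.16, and the difference between the genotypes was positive for all 8. With edgeR no Sm gene passed a test between pieces, and 6 of the 8 had an unadjusted p under 0.05 for the difference between genotypes, against 17.5% of all genes tested. That difference was positive for 47.9% of all genes, for 13 of 15 snRNP assembly genes, for 48 of 61 other spliceosome genes, for 15 of 15 B cell markers and for 12 of 15 T cell markers. Other lists went the other way: the difference was positive for 0 of 15 erythroid, 0 of 10 macrophage, 0 of 10 endothelial and 2 of 30 proliferation genes. For the B cell markers the median piece difference was 0.08 in the SB fit and -0.27 in the WT fit. The part of these cells in the Sm values was not tested. In SB animal 1 the summed Sm level in piece 2 was 1.12 times that in piece 1, with 1.02 and 1.15 in SB animals 2 and 3 and 0.914, 0.871 and 0.948 in WT animals 1 to 3.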

How the data were processed

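The deposited values are whole-number read counts per Ensembl gene, 1 column per spleen piece, not normalised by the authors, judged from the values. Per the labels' protocols, total RNA was made into unstranded poly-A libraries. STAR 2.5.3a and limma, with the builds mm10 and GRCm38, appear per the submitters' processing notes, which give no roles. Counting mode and annotation release: not given in the sources used here. Symbols came from GENCODE M21 by Ensembl identifier (32026 of 32121 matched; 95 not). Another 4 rows that match the names, all processed pseudogenes, held at most 0.00627% of the counts of such rows in any library and were left out.

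Counts of the 2 pieces were summed per animal for genotype, fitted with edgeR 4.0.16 (R 4.3.3; TMM, filterByExpr, robust quasi-likelihood, BH threshold 0.05); pieces were fitted over 12 libraries with the animal as a block. The titles give each animal's pieces, and deviations from the group means correlated at 0.94 to 0.96 within SB animals and 0.17 to 0.49 within WT animals. Standard errors were taken from the log2 change and its F statistic. DESeq2 1.42.0, RLE factors, no filter, single pieces, globin and receptor genes left out, and leaving out each animal were tried. The steps were also run on simulated data. For the genotype fit the simulated spread between animals was set smaller than in these data. That run thus does not show how well the genotype test performs at the real spread.

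The genes and lists were chosen with earlier results of these data known. Named genes are those called, the 5 uncalled of largest change, Srsf2, Sf3b1, Snrpn, Hnrnpll, Hnrnpa1, Snrpb, the most and least abundant, and up to 3 a direction from each related list; Snrnp70 in the genotype comparison, the 6 smaller-particle genes and those called without SB animal 2 were named after their values were seen.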

Additional observations from a re-analysis of the deposited data

Results flagged for a closer look

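The difference between pieces of a spleen was not the same in the genotypes for 2 genes, by the interaction test of edgeR over all genes. For Hnrnpa1 the piece 2 minus piece 1 difference was lower in SB than in WT by a log2 value of -0.67, with every SB spleen below 0 and every WT spleen above 0. For Srsf5 it was -0.54, with SB spleens close to 0 and WT spleens all higher in piece 2. No cause was tested.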

How the results depend on the processing

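Alternatives were run for the 13 genes of the naming rule in the genotype fit and for those called between pieces, and none of these log2 changes turned its sign. Of 169 genotype values, 133 stayed on their side of the threshold, 20 lost a call and 16 gained one; of 110 piece values, 68 stayed and 42 lost a call. Genes called higher in SB numbered 10 with DESeq2 (16.9%, against 16.8% of all genes tested) and 6 from piece 1 alone. Those called lower numbered 1 without the filter and 1 from piece 1 alone. Leaving out 1 animal gave 0 to 17 higher (most without SB animal 2) and 0 to 2 lower. Without SB animal 2, 28.8% were higher, against 17.2% of all genes tested, and 3.39% lower, against 18.5%. Between pieces, the fit without the replicate block called 0 in all animals, 0 in WT and 0 for the interaction. DESeq2 called 1 in SB (1.69%, against 1.77% of all genes tested) and 4 for the interaction. Leaving out 1 animal gave 0 to 2 calls in all animals, 0 to 5 in SB, 0 to 18 in WT and 0 to 5 for the interaction. The 18 in WT, found without SB animal 1, were 30.5%, against 18.8% of all genes tested. The older quasi-likelihood estimation of edgeR was added after seeing the data and moved no count of called genes by over 1.5 times. Calls over all genes tested moved with the setting too, from 8.59% higher in SB to 16.8% with DESeq2. Counts given here without a share over all genes do not show whether the splicing genes shifted more than others. The cause of these shifts was not tested. Depth limits Srsf12 and Snrpn, at 0 to 12 counts in each SB library.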
